A study of Mus musculus with 16 samples.

Results

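The genes of 5 chemokine receptors were followed through thymocyte development by the open chromatin around them: *Ccr9*, *Cxcr4*, *Ccr4*, *Ccr8* and *Cxcr6*. ATAC-seq peaks were counted for a gene when they lay wholly inside the gene body (GENCODE M21) or 30 kb on either side, in each of 4 stage lists on mm10. This gave 312 of 476734 peaks, made up of 82 of 150139 in the DN list, 75 of 107110 in the DP list, 79 of 115074 in the SP4 list and 76 of 104411 in the SP8 list. Every one of the 5 genes had peaks at every stage, so all 5 are described. ATAC-seq marks DNA that a transposase can reach, and a peak is a stretch where the cut ends exceed the local background.

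The thymocytes came from 4 wild type C57BL/6J mice, 9 weeks old and untreated as far as the labels say, and each mouse gave 1 library per stage. Cells were sorted as lineage-negative DN (CD4-CD8-CD3-), DP (CD4+CD8+), SP4 (CD4+CD8-CD3+) and SP8 (CD4-CD8+CD3+). The authors pooled the 4 mice of a stage before calling peaks, so each stage has 1 list, values carry no replicate error and differences between stages could not be tested. Fold enrichment at the summit (the ratio of cut ends to local background) is therefore given with its percentile among all peaks of the same list. The lists differ in length and background, so neither fold enrichment nor its ratios between stages are on one common scale.

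Chemokine receptors are G protein-coupled receptors that steer cells along gradients of secreted chemokines. CCR9 reads CCL25 and helps bone marrow progenitors settle in the thymus, and CXCR4 reads CXCL12 and is used by DN and DP cells in the cortex. CCR4 (ligands CCL17 and CCL22) and CCR8 (ligands CCL1 and CCL8) are known from medullary entry and from helper and regulatory T cells, and CXCR6 (ligand CXCL16) from natural killer T and effector T cells.

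Peaks around these genes were mostly more numerous than around the median gene. The *Ccr9* window (165.892 kb, since GENCODE lists a long transcript) held 28 peaks in DN, 34 in DP, 35 in SP4 and 28 in SP8 cells. The *Cxcr4* window (64.095 kb) held 18, 18, 15 and 17 peaks in the same order of stages. The *Ccr4* window (74.601 kb) held 18, 11, 13 and 15. Those numbers place DN first for *Ccr4*. With equal numbers of peaks, each list cut to its 104411 strongest by q-value, the DN count was 10 against 10, 13 and 15. The *Ccr8* window (62.793 kb) held 16, 11, 14 and 14 peaks, and the *Cxcr6* window (65.286 kb) held 6, 10, 11 and 11. *Cxcr6* had its lowest count at DN, the longest list, and *Ccr9* was equally low at DN and SP8. With equal numbers of peaks the *Cxcr6* counts were 6, 8, 10 and 11.

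**Figure D1:**
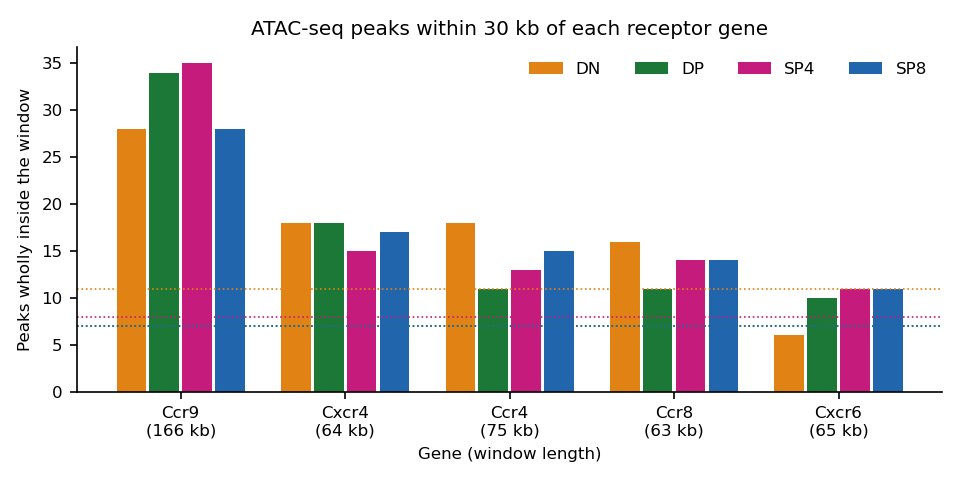
Number of ATAC-seq peaks (vertical axis) wholly inside the window of each receptor gene (horizontal axis), by stage. Bars are counts from 1 pooled list each, with no error, and dotted lines are the medians over 20807 protein-coding genes (11 in DN, 7 in DP, 8 in SP4 and 7 in SP8 cells, the DP and SP8 lines lying on each other). *Cxcr6* falls below the line at DN, with 6 peaks, and lies above it at the later stages.

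Windows of the same kind around all 20807 autosomal protein-coding genes gave the scale. Per 100 kb of window, *Cxcr4* had 28.1 peaks in DN, 28.1 in DP, 23.4 in SP4 and 26.5 in SP8 cells, against medians over all genes of 11.6, 8.12, 8.66 and 7.88. That density was above 94.5% of genes in DN, 98.4% in DP, 95.3% in SP4 and 97.9% in SP8 cells, the highest of the 5 receptors at each stage. *Cxcr6* had 9.19 peaks per 100 kb at DN, above 40.9% of genes, and 15.3, 16.9 and 16.9 later, above 77.9%, 82.3% and 84.1%. *Ccr9* had the highest raw counts, but with its long window the density was 16.9, 20.5, 21.1 and 16.9 per 100 kb. *Ccr4* ranged from 14.7 (DP) to 24.1 (DN) and *Ccr8* from 17.5 (DP) to 25.5 (DN). Both genes had their lowest density at DP.

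The *Ccr9* and *Cxcr6* windows overlap over 37.856 kb of chr9:123776475-123814330, which holds 31 of the peaks; totals over the 5 genes count these once. Peaks overlapping by 1 bp or more across the lists were joined into a region, giving 112 regions of 185978. Of the 112, 47 (42.0%) were called at all 4 stages, against 34.1% of all regions, and 33 (29.5%) at 2 or 3 stages, against 27.4%. DN-only regions numbered 11 (9.82%), against 21.7% of all regions. The other single-stage classes held 7 regions each (6.25%), against 5.17% for DP-only, 7.39% for SP4-only and 4.21% for SP8-only. With equal numbers of peaks per list 4 regions were DN-only, in place of 11. That cut removes the weakest peaks of the long DN list, and the DN-only share of all regions under it is not given.

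Counted by stage, 79 of the 112 regions (70.5%) were called at DN, against 75.7% of all regions, and 71 (63.4%) at DP, against 53.9%. At SP4 77 regions (68.8%) were called, against 58.3%, and at SP8 74 (66.1%), against 53%. The members' peaks were slightly higher than their lists. Their median fold enrichment was 6.80 in DN, 6.04 in DP, 6.53 in SP4 and 6.71 in SP8 cells, and the list medians were 5.56, 5.45, 5.93 and 6.11. Regions called at all 4 stages were also the higher ones, with a median top percentile of 83.4, against 54.7 for those at 2 or 3 stages and 19.4 for those at 1 stage. All regions of the series ran the same way, at 80.9, 48.4 and 24.9, and a top over several lists is a maximum of more values. A region missing from a list may hold signal under the threshold, and in sorted bulk cells fewer open cells cannot be told apart from less opening per cell.

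The promoter, taken as the 200 bp upstream of any annotated transcript start, was open at all 4 stages for all 5 receptors. Among protein-coding genes 65.7% had a promoter peak at DN, 61.3% at DP, 59.6% at SP4, 59.6% at SP8 and 56.7% at all 4 stages. The receptors differed in height. Taking the highest peak of the region over the promoter, *Ccr4* and *Cxcr6* were between percentiles 90.7 and 97.9 at every stage, whereas *Ccr9*, *Cxcr4* and *Ccr8* lay between percentiles 56.0 and 88.9.

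**Figure D2:**
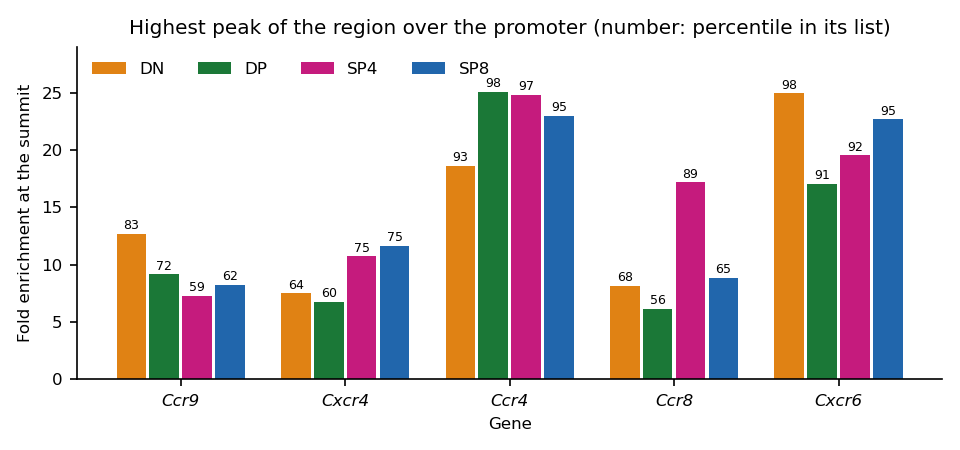
Fold enrichment at the summit (vertical axis) of the highest peak in the region over each receptor's promoter (horizontal axis), by stage, with its percentile in the list of that stage printed above the bar. Each bar is 1 value from pooled mice. *Ccr9* is highest at DN (12.7), *Cxcr4* at SP8 (11.7), *Ccr4* at DP (25.1), *Ccr8* at SP4 (17.2) and *Cxcr6* at DN (24.97).

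*Ccr9* (ENSMUSG00000029530.16, chr9:123678439-123784330, plus strand) encodes the CCL25 receptor. Its main promoter region, chr9:123767013-123767475, had a fold enrichment of 12.7 in DN, 9.15 in DP, 7.27 in SP4 and 8.25 in SP8 cells. DN was highest and SP4 lowest, with percentiles of 83.4, 72.1, 59.4 and 62.5. The 300 bases around the start (RefSeq, GRCm38.p6, chr9:123766961-123767260, plus strand, 250 before the start and 50 after it) are shown because this promoter carries the stage pattern. Capitals mark matches, on either strand, to any of 9 spelled motifs or that of CTCF. Of factors at work in early thymocytes, RUNX was searched as TGTGGT, the zinc finger family GATA as AGATAA and the partner factors TCF7 and LEF1 as CTTTGA. E proteins such as E2A and HEB bind E-boxes, searched as CAGNTG, and ETS factors were searched as GGAAGT. The orphan nuclear receptors of the ROR family, active in DP cells, were searched as AGGTCA and the KLF family, active in mature T cells, as CCACCC. For factors downstream of antigen receptor signalling, AP-1 was searched as TGANTCA and NFAT as GGAAAA.
Ccr9 promoter: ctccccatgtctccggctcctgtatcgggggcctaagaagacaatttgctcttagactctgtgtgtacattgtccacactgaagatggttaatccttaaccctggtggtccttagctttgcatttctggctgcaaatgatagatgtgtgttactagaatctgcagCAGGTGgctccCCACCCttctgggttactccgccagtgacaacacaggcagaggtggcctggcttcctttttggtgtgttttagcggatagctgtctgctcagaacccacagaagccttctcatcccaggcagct
The capitals are an E-box at -85 and a KLF match at -74, counted from the start, and do not overlap. Of 31396 autosomal promoters of this length, 51.4% held an E-box match and 31.7% a KLF match.

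GENCODE also lists a *Ccr9* start at position 123678439, far upstream and beside the promoter of *Slc6a20a*, a transporter gene on the other strand. The region there, chr9:123678316-123679132, ran the other way from the main promoter. Its fold enrichment was 5.39 in DN, 11.9 in DP, 14.3 in SP4 and 13.1 in SP8 cells, and it overlapped the 200 bp promoter at DP, SP4 and SP8 only. At DP the overlap was by a separate small peak of 3.51 (percentile 18.7). Which gene it serves cannot be told from peaks. The start at 123774540 had no promoter peak at any stage.

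Between these starts, several *Ccr9* elements differed in height or presence between stages. The region chr9:123762911-123763246, at -4.20 kb from the main start, read 7.89 at DN and 6.25 at DP but 2.68 at SP4 and 2.38 at SP8, or percentiles 66.5, 56.5, 2.74 and 1.44. This was the widest range among the *Ccr9* regions called at all 4 stages. The region chr9:123740696-123741243, at -26.20 kb, had no peak at DN or DP, 4.74 at SP4 and 17.7 at SP8 (percentile 88.6). At -37.26 kb, chr9:123729812-123730058 read 5.54 at DN, 4.91 at DP and 12.5 at SP4, with no peak at SP8. The last 2 thus separated SP8 from SP4 in opposite directions. Their central 201 bases on the plus strand, with that of the -4.20 kb element (GRCm38.p6, centred on the highest summit), are given as the intronic *Ccr9* elements named for their range or for a high peak at some stages only.
Ccr9 -4.20 kb, chr9:123762909-123763109: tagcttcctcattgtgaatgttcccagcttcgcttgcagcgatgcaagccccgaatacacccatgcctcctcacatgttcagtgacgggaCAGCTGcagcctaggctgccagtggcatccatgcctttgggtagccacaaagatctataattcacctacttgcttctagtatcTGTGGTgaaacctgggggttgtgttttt
Ccr9 -26.20 kb, chr9:123740912-123741112: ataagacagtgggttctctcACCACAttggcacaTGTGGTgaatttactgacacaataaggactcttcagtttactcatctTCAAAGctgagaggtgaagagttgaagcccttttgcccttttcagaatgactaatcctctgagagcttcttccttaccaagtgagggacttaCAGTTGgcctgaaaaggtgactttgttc
Ccr9 -37.26 kb, chr9:123729855-123730055: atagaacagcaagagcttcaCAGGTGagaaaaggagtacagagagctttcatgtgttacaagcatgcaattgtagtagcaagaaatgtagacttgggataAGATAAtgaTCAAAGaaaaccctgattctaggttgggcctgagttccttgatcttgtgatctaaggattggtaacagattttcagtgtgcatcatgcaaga
The -26.20 kb element held 2 RUNX matches, 1 TCF7/LEF1 match and 1 E-box. The -4.20 kb element held 1 E-box and 1 RUNX match, and the -37.26 kb element 1 E-box, 1 GATA and 1 TCF7/LEF1 match. None of these matches overlapped another.

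Farther out, chr9:123657318-123657859 at -109.55 kb, over an exon of *Slc6a20a*, read 18.9 at DN, 9.01 at DP and 3.79 at SP4, with no peak at SP8. The highest *Ccr9* window peak at DP, SP4 and SP8 lay over the promoter of *Lztfl1*, a regulator of ciliary protein traffic inside the long *Ccr9* transcript. That region, chr9:123717318-123718047, was nearly level at 23.6, 25.6, 24.0 and 25.1. The remaining named *Ccr9* regions were called at 1 stage each, with percentiles from 50.4 to 55.3. They lay at -111.87 kb (SP4, fold enrichment 6.64), -83.23 kb (DN, 5.77), -34.52 kb (SP8, 6.21), -31.31 kb (SP4, 6.31) and 37.97 kb (SP4, 6.33). The last lies in an intron of *Fyco1* and also in the *Cxcr6* window, at -1.29 kb from the *Cxcr6* start. Over the whole *Ccr9* window 16 of 48 regions (33.3%) were called at all 4 stages, against 34.1% of all regions. DN alone held 2 (4.17%), DP alone 5 (10.4%), SP4 alone 4 (8.33%) and SP8 alone 3 (6.25%). Shares of all regions in that order were 21.7%, 5.17%, 7.39% and 4.21%. With the shorter RefSeq gene body (16.247 kb), the window held 12 peaks in DN, 18 in DP, 20 in SP4 and 19 in SP8 cells, so DN was lowest there.

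**Figure D3:**
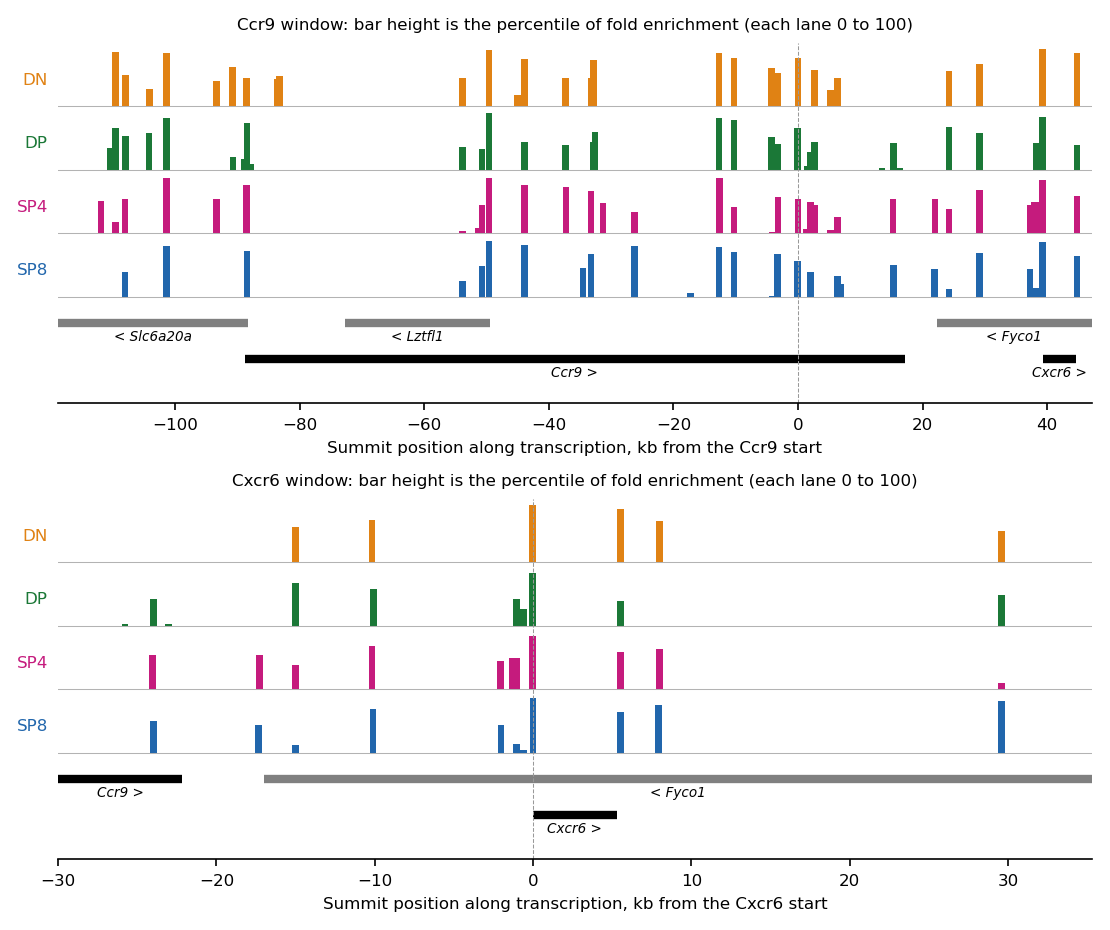
Peaks of each stage around *Ccr9* and *Cxcr6*. The horizontal axis is the summit's distance in kb from the RefSeq start along the direction of transcription, bar height is the percentile of fold enrichment in the list of the stage (0 to 100 in each lane), and black and grey bars below are the receptor genes and other protein-coding genes, with arrows for direction. The *Ccr9* peak at -26.20 kb appears only in the SP4 and SP8 lanes, and the *Cxcr6* peak at 7.93 kb is missing from the DP lane.

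*Cxcr6* (ENSMUSG00000048521.8, chr9:123806475-123811760, plus strand), the CXCL16 receptor gene, lies in an intron of *Fyco1* on the opposite strand, downstream of *Ccr9*. Its promoter region, chr9:123806270-123806711, had a fold enrichment of 24.97 in DN, 17.0 in DP, 19.5 in SP4 and 22.7 in SP8 cells. By q-value SP8 (percentile 96.0) was above DN (94.6). The region was the highest peak of the *Cxcr6* window at every stage and of the *Ccr9* window at DN. The promoter (RefSeq, GRCm38.p6, chr9:123806227-123806526, plus strand) is shown as the tallest of the 5 at DN.
Cxcr6 promoter: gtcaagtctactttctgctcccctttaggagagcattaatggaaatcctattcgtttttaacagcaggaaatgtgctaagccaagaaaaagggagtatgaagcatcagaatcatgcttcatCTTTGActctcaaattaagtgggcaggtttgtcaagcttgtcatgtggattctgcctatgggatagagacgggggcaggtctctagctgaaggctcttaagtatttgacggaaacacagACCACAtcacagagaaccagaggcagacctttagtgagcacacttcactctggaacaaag
It held a TCF7/LEF1 match at -129 (15.9% of promoters) and a RUNX match at -10 (16.7%), which did not overlap.

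While the promoter was open throughout, some flanking regions of *Cxcr6* differed between stages. The region at 7.93 kb past the start, chr9:123814164-123814912, read 8.78 at DN, 9.24 at SP4 and 14.5 at SP8, with no DP peak. Between SP8 and SP4 this was a gap of 14.0 percentile points by fold enrichment and 27.5 by q-value. At 29.59 kb, chr9:123835759-123836299 read 5.99 in DN, 5.85 in DP, 3.32 in SP4 and 18.5 in SP8 cells, or percentiles 53.3, 53.1, 10.5 and 89.9. SP8 was 3.09-fold the next stage there and 5.57-fold the lowest, the widest ratio of the 32 named regions over the stages where each was called. Its central 201 bases, from an intron of *Fyco1* (plus strand), are shown as the most SP8-weighted element of the *Cxcr6* window.
Cxcr6 29.59 kb, chr9:123835962-123836162: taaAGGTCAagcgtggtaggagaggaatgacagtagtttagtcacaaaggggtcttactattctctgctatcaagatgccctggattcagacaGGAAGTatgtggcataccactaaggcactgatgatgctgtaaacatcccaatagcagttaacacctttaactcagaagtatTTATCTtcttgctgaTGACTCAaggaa
The sequence held 1 match each to ROR, ETS, GATA and AP-1, with no overlap. Of the 14 regions in the *Cxcr6* window 5 (35.7%) were called at all 4 stages, against 34.1% of all regions. None was DN-only, against 21.7% of all regions. Calls numbered 6 (42.9%), 10 (71.4%), 11 (78.6%) and 11 (78.6%) of the 14 in stage order from DN to SP8. The matching shares of all regions were 75.7%, 53.9%, 58.3% and 53%. The *Ccr9* window also holds 12 of the 14. Among these is the SP4-only region given above with *Ccr9*, at -1.29 kb from the *Cxcr6* start. Natural killer T cell markers had a promoter peak in 4 of 6 cases in each list, against 59.6% to 65.7% of all protein-coding genes.

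*Cxcr4* (ENSMUSG00000045382.6, chr1:128588199-128592293, minus strand) encodes the CXCL12 receptor, and no other annotated gene reaches into its window. Its promoter region, chr1:128591898-128592787, read 7.49 in DN, 6.77 in DP, 10.7 in SP4 and 11.7 in SP8 cells at its highest summit. At DN it held 2 peaks, and the one over the 200 bp promoter itself was the lower, at 4.36 (percentile 33.5). By fold enrichment both single-positive stages were above DN and DP, at percentiles 74.5 and 75.4 against 64.1 and 60.1, but by q-value SP4 (88.7) was below DN (89.8). The highest summit lay at -339 from the start at DN and at -348, -349 and -348 at the later stages. The gap between SP8 and DP was 15.3 percentile points by fold enrichment and 4.01 by q-value. The intronic region next to it, chr1:128590726-128591662 at 0.94 kb, ran the other way, at 15.0, 15.3, 11.4 and 11.7. The promoter (RefSeq, GRCm38.p6, chr1:128592250-128592549, minus strand) is shown as the 1 promoter of the 5 with no match to any of the motifs.
Cxcr4 promoter: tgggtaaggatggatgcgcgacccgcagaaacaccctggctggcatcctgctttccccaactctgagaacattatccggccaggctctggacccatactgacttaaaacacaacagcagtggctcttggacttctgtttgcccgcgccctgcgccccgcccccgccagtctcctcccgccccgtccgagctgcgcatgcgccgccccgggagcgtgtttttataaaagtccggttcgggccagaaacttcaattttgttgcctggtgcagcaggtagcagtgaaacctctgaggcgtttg
That says only that these letters are not in this window. With 59.3% G and C it was the richest of the 5 in these bases.

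Upstream of *Cxcr4*, neighbouring elements differed. The region at -10.50 kb, chr1:128602392-128602939, read 3.29 in DN, 6.66 in DP, 5.62 in SP4 and 11.6 in SP8 cells. The region at -10.94 kb, chr1:128603005-128603374, read 10.8 at DN and 10.8 at DP, had no SP4 peak and read 4.03 at SP8. The first was thus highest and the second lowest at SP8 among the stages where each was called, although by q-value the drop of the second from DN to SP8 was 30.8 percentile points in place of 52.6. Both are printed on the plus strand for that contrast.
Cxcr4 -10.50 kb, chr1:128602702-128602902: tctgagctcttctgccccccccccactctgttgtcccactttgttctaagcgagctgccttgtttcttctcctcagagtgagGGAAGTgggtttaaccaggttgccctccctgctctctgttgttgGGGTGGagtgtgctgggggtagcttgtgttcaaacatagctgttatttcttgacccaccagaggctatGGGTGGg
Cxcr4 -10.94 kb, chr1:128603143-128603343: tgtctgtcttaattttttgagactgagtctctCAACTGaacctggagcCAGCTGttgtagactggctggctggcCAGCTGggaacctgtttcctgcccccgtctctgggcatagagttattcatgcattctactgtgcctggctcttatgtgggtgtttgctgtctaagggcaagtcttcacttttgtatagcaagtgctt
The -10.50 kb element held 1 ETS and 2 KLF matches, and the -10.94 kb element 3 E-boxes, with no overlaps.

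Downstream, the highest *Cxcr4* region at DP, SP4 and SP8 was chr1:128569889-128570627 at 22.23 kb, with 14.5 in DN, 17.2 in DP, 21.2 in SP4 and 19.6 in SP8 cells. It was at percentile 87.1 or above at each stage. A smaller DN-only region lay beside it at 21.01 kb (chr1:128571190-128571368), at 6.64 (percentile 58.5). Of 22 *Cxcr4* regions 11 (50%) were called at all 4 stages, against 34.1% of all regions. SP8 alone held 2 (9.09%), and DN, DP and SP4 alone 1 each (4.5%). Shares of all regions were 4.21% for SP8-only, 21.7% for DN-only, 5.17% for DP-only and 7.39% for SP4-only.

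*Ccr4* (ENSMUSG00000047898.7, chr9:114490316-114504916, minus strand) encodes the receptor for CCL17 and CCL22. Its promoter region, chr9:114496362-114497062, was among the tallest peaks of each list, at 18.6 in DN, 25.1 in DP, 24.8 in SP4 and 23.0 in SP8 cells. DN was lowest, at percentile 93.1 against 97.8, 96.7 and 95.0, and the 4 stages lay within 1.35-fold. Promoters at the other annotated starts (114496038 and 114504916) had no peak. The promoter (RefSeq, GRCm38.p6, chr9:114496495-114496794, minus strand) is shown as the one with the most matches.
Ccr4 promoter: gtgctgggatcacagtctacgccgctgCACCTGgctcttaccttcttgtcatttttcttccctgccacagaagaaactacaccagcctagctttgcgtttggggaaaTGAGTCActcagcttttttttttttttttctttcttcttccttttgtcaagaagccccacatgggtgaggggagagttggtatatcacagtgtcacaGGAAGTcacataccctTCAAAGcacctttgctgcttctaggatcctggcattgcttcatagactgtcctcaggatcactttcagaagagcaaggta
It held an E-box at -223, an AP-1 match at -143 (7.84% of promoters), an ETS match at -46 (23.9%) and a TCF7/LEF1 match at -30, with no overlap.

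Against that steady promoter, 2 named *Ccr4* elements differed between DN and the single-positive stages. The region chr9:114488142-114488766, 7.97 kb past the start and beyond the end of the gene, read 21.4 in DN, 6.04 in DP, 6.43 in SP4 and 5.23 in SP8 cells. DN was 3.34-fold the next stage, and this was the highest DN peak of the window, above the promoter itself. The region chr9:114507478-114507768 at -11.07 kb, over an exon of *Trim71*, ran the other way with 2.50 in DN, 2.32 in DP, 6.79 in SP4 and 9.43 in SP8 cells, from percentile 1.99 at DN to 67.7 at SP8. Only the first is printed (plus strand), since the second lies over an exon of another gene.
Ccr4 7.97 kb, chr9:114488469-114488669: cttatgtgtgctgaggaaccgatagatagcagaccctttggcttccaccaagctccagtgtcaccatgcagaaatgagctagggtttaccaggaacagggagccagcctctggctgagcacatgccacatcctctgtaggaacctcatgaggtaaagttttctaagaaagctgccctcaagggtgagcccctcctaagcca
None of the motifs matched in these bases. A *Ccr4* region at 11.11 kb, outside the rule for naming, was low at DN too. It read 3.29 in DN, 6.78 in DP, 7.72 in SP4 and 7.85 in SP8 cells. Of 20 *Ccr4* regions 10 (50%) were called at all 4 stages, against 34.1% of all regions. DN-only regions numbered 4 (20%), close to the 21.7% of all regions. DP-only and SP8-only regions numbered 1 each (5%), against 5.17% and 4.21%. None was SP4-only, against 7.39%.

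**Figure D4:**
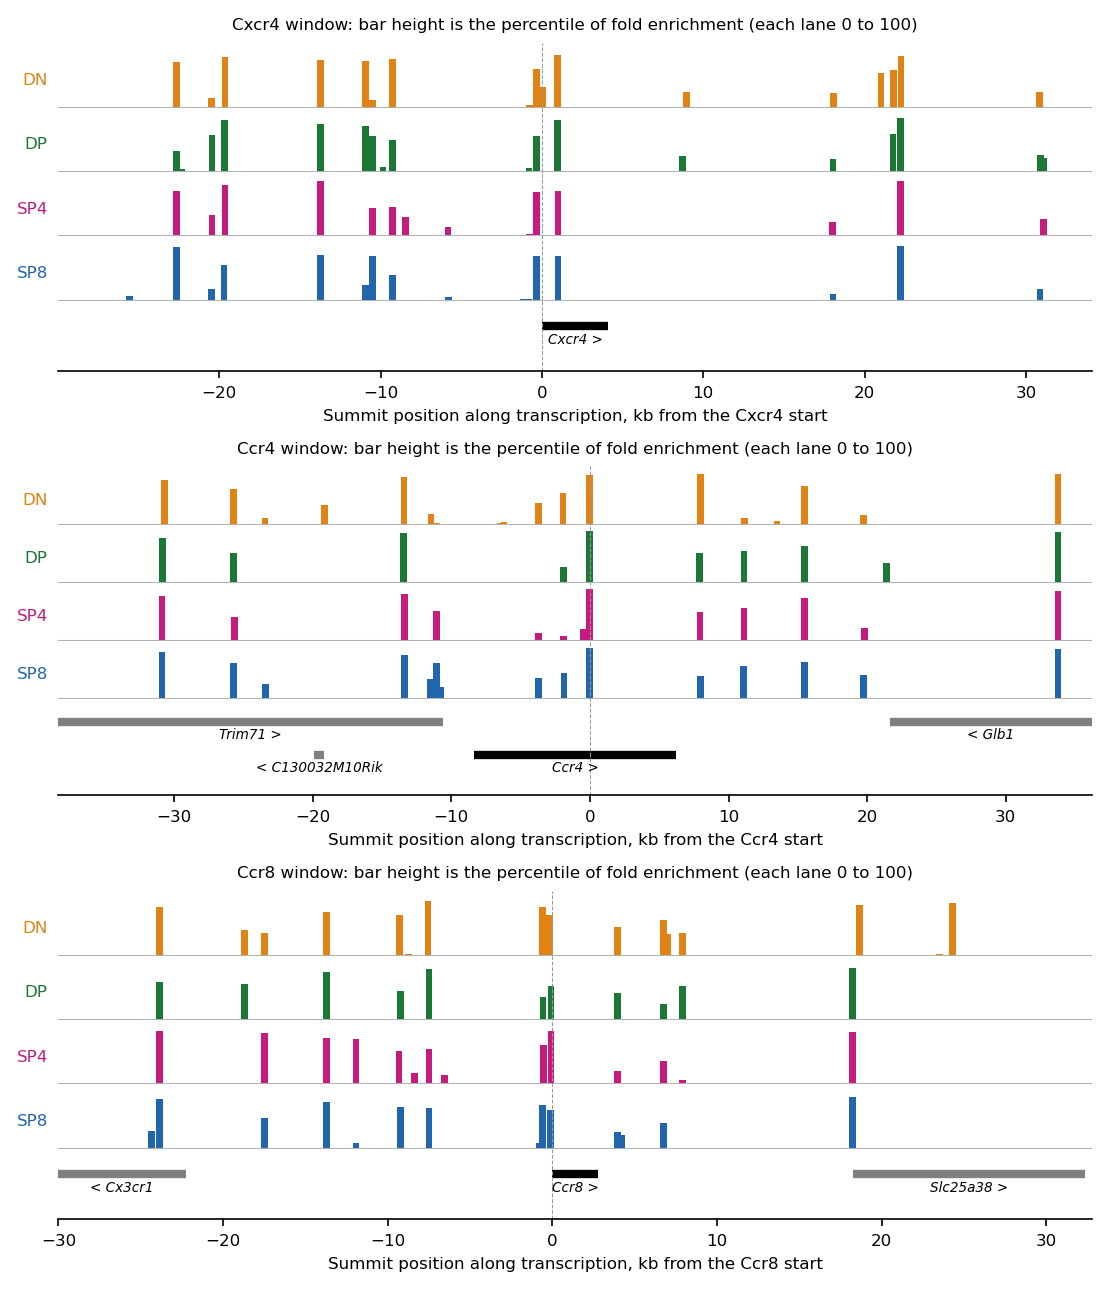
Peaks of each stage around *Cxcr4*, *Ccr4* and *Ccr8*. The horizontal axis is the summit's distance in kb from the RefSeq start along the direction of transcription, bar height is the percentile of fold enrichment in the list of the stage (0 to 100 in each lane), and black and grey bars are the receptor and other protein-coding genes. The *Ccr4* peak at 7.97 kb stands at percentile 95.8 at DN and between 41.4 and 54.8 later, and the *Ccr8* peak at 24.29 kb is in the DN lane only.

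*Ccr8* (ENSMUSG00000042262.5, chr9:120092114-120094906, plus strand) encodes the receptor for CCL1 and CCL8. Its promoter region, chr9:120091830-120092198, read 8.17 in DN, 6.15 in DP, 17.2 in SP4 and 8.83 in SP8 cells. SP4 was 1.95-fold the next stage and 2.79-fold the lowest, the widest range among the 5 main promoters, at percentiles 67.8, 56.0, 88.9 and 65.2. The promoter (RefSeq, GRCm38.p6, chr9:120091883-120092182, plus strand) is shown for that range.
Ccr8 promoter: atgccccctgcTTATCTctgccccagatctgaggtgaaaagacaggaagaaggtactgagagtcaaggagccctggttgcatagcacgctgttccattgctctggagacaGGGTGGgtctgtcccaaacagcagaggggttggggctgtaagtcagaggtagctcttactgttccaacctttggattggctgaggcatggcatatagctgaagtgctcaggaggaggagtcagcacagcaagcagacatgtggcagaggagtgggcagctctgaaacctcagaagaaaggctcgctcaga
It held a GATA match at -239 (11.2% of promoters) and a KLF match at -140, with no overlap.

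At 2 upstream elements of *Ccr8* SP4 was again highest. The region chr9:120074515-120074873 at -17.49 kb read 4.53 at DN, 15.7 at SP4 and 6.17 at SP8, with no DP peak. The region chr9:120079897-120080310 at -11.92 kb was called only at SP4 (11.0) and SP8 (3.02), and SP4 was 3.64-fold SP8. Both are printed (plus strand) because SP4 was highest there as at the promoter.
Ccr8 -17.49 kb, chr9:120074547-120074747: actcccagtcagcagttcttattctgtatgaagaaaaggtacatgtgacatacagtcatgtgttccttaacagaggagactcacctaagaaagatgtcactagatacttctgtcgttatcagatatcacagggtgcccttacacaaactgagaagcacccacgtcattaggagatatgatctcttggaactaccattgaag
Ccr8 -11.92 kb, chr9:120080111-120080311: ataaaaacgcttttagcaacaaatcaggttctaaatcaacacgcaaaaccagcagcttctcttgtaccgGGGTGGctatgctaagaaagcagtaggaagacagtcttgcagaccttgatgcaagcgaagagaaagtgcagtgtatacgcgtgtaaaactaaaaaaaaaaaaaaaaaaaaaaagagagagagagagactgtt
The first held no match and the second 1 KLF match. SP4 cells include regulatory T cells, and the promoters of 6 regulatory T cell markers were open in 5, 5, 6 and 6 cases from DN to SP8, *Tnfrsf4* at SP4 and SP8 only. Of all protein-coding genes, 59.6% to 65.7% had a promoter peak at a given stage. The part of regulatory T cells in the *Ccr8* values was not tested.

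Other *Ccr8* elements were highest at DN. The region chr9:120084407-120084820 at -7.56 kb read 17.2 in DN, 13.9 in DP, 7.11 in SP4 and 9.53 in SP8 cells. By q-value its gap from DN to SP4 was 17.0 percentile points in place of 33.1. At -0.58 kb, chr9:120091138-120091747 read 11.96 in DN, 4.45 in DP, 8.6 in SP4 and 10.8 in SP8 cells. The region chr9:120116295-120116640 at 24.29 kb, over an exon of *Slc25a38*, was called at DN only, at 15.7 and percentile 89.2, the highest single-stage region of all 5 windows. Promoters of neighbouring genes made up further tall peaks. That of *Slc25a38*, a mitochondrial carrier, was nearly level at 13.8, 14.8, 16.5 and 16.1. That of *Cx3cr1*, the fractalkine receptor gene, read 12.1, 7.49, 17.5 and 15.0. Of 20 *Ccr8* regions 9 (45%) were called at all 4 stages, against 34.1% of all regions. DN-only regions numbered 4 (20%, against 21.7%), SP4-only 2 (10%, against 7.39%) and SP8-only 1 (5%, against 4.21%). None was DP-only, against 5.17%.

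**Figure D5:**
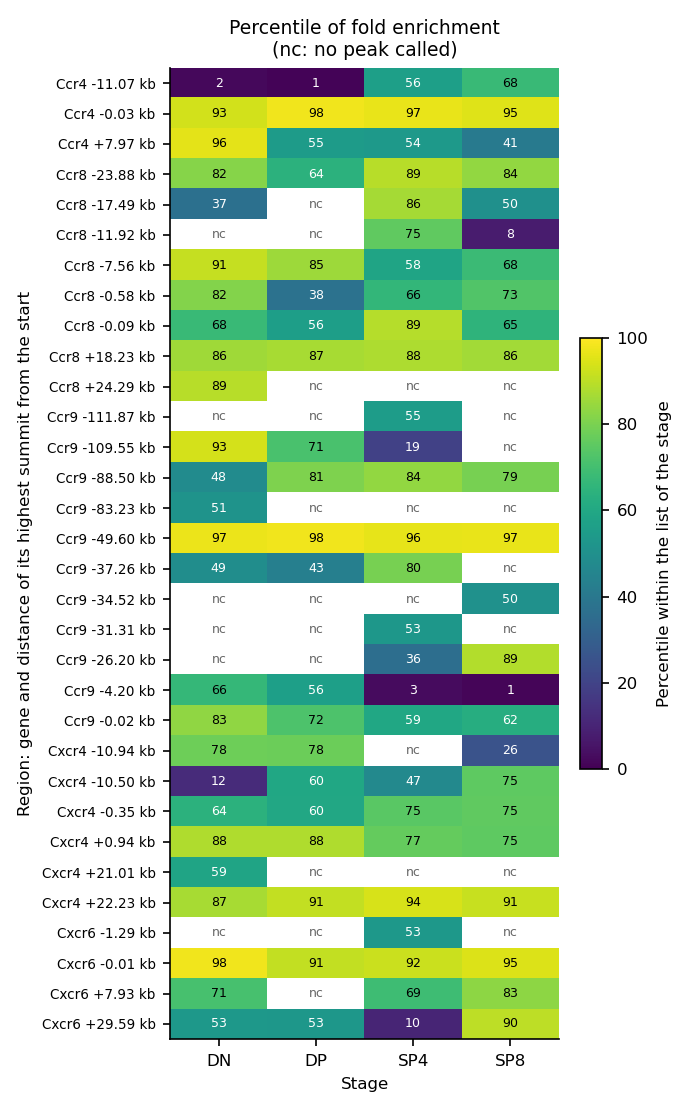
Percentile of fold enrichment in the list of each stage (columns) for the 32 named regions (rows, labelled by the nearest receptor start and the distance of the highest summit in kb), with nc where no peak was called. Cells are single values from pooled mice. Promoter rows of *Ccr4* and *Cxcr6* stay at percentile 90.7 or above, whereas 7 rows hold a value at 1 stage.

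Among the 47 regions open at all 4 stages, the highest percentile fell at DN in 16 (34.0%), DP in 10 (21.3%), SP4 in 11 (23.4%) and SP8 in 10 (21.3%). Over all 63369 such regions the shares were 35.0%, 21.5%, 23.8% and 19.7%. The receptor shares lay close to those of the series. Percentiles depend on the list: at the *Ccr8* promoter 8.17 ranked at percentile 67.8 in DN, and 8.83 at 65.2 in SP8.

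The 30 kb edge itself divided little. Within 5 kb inside the 8 outer window edges lay 4 regions, 1 of them at all 4 stages and the highest at percentile 96.4. Within 5 kb outside lay 3 regions, 2 of them at all 4 stages and the highest at percentile 94.1. No peak was cut by these outer edges. The *Ccr9* window's end inside that of *Cxcr6* cut a peak at DN, SP4 and SP8, which is counted for *Cxcr6*.

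Motif matches in the 112 regions were set against all 185978 regions. RUNX matches were in 39 (34.8%, against 31.0%), ETS in 35 (31.2%, against 29.3%), TCF7/LEF1 in 29 (25.9%, against 21.4%) and E-boxes in 72 (64.3%, against 61.6%). GATA matches were in 21 (18.7%, against 11.5%), KLF in 39 (34.8%, against 27.7%) and NFAT in 22 (19.6%, against 17.1%). AP-1 matches were in 12 (10.7%, against 9.95%), ROR in 16 (14.3%, against 15.1%) and CTCF in 3 (2.68%, against 5.63%). The receptor regions were wider, with a median of 291 bp against 231 bp, and wider regions hold more matches. In the 100 bp around each summit, TCF7/LEF1 matches were in 15 regions (13.4%, against 7.63%) and E-boxes in 33 (29.5%, against 36.1%), and GATA matches were in 5 (4.46%, against 3.37%). AP-1 and NFAT were in 3 each (2.68%, against 3.88% and 3.49%) and KLF in 12 (10.7%, against 10.6%). E-box, AP-1 and NFAT shares were thus above those of all regions over the whole region and below them around the summit. RUNX was in 20 and ETS in 20 (17.9% each, against 15.8% and 14.9%), ROR in 3 (2.68%, against 4.52%) and CTCF in 1 (0.893%, against 2.01%). These are descriptions, and the factors' binding was not measured.

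By covered length, the pattern over stages most like that of each receptor was found among 20790 other genes. Likeness was the distance between the 4 stage values of log2 covered bp (with 100 bp added), centred over the stages, with 1 value per stage. *Ccr9* (9595 bp covered at DN, 9832 at DP, 10205 at SP4, 9885 at SP8) was nearest to *Fcf1*, *Pikfyve* and *Kcna7*, and 2898 genes lay within 0.1, so its nearly level pattern was common. *Cxcr4* (5843, 5407, 5125 and 6160 bp) was nearest to *P2rx4*, *Faap100* and *Gm21970*, with 298 genes within 0.1. *Ccr4* (4705, 3455, 4136 and 5052 bp) was nearest to *Rpp14*, *Twistnb* and *Os9*, with 52. *Ccr8* (4860, 3020, 4967 and 4264 bp) was nearest to *Rgs7bp*, *Washc4* and *Bbs9*, with 36. *Cxcr6* (2302, 2647, 3605 and 3782 bp) had the rarest pattern of the 5, lowest at DN and higher at both single-positive stages than at DP. It had 11 genes within 0.1, with *Cenpw*, *Ptprc* and *Nsun6* nearest.

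The wider chemokine system gave a mixed picture. Of 16 other chemokine receptors on autosomes, 6 had a promoter peak in DN, 7 in DP, 9 in SP4 and 8 in SP8 cells, with 5 at all 4 stages and 7 at none. Over all autosomal protein-coding genes the shares in that order were 65.7%, 61.3%, 59.6% and 59.6%, with 56.7% at all 4 stages. Of the receptors, *Ccr2* had a promoter peak at SP4 only, *Cxcr1* at all but DP, and *Cxcr2* and *Cxcr5* at all but DN. *Cxcr3*, on the X chromosome, was not covered by the lists. Of 7 ligands of the 5 receptors, 2 (*Ccl25* and *Cxcl16*) had a promoter peak at every stage, and *Cxcl12*, *Ccl17*, *Ccl22*, *Ccl1* and *Ccl8* had none. All 12 genes of chemokine signalling and migration (such as *Gnai2*, *Dock2* and *Coro1a*) had one at all 4 stages.

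Marker promoters were checked against the labels. Beside the counts below, the shares of all protein-coding genes with a promoter peak were 65.7%, 61.3%, 59.6% and 59.6% from DN to SP8. The 6 T lineage markers were open in 5, 5, 6 and 6 cases from DN to SP8 (*Bcl11b* at SP4 and SP8 only). The *Bcl11b* window held 56 peaks at DN and 50 at DP, so the missing calls concern the 200 bp promoter and not the locus. All 6 DN markers and all 6 mature single-positive markers were open at every stage, so these sets cannot tell the stages apart. The 4 SP4 markers were open in 3, 3, 4 and 3 cases, with *Zbtb7b* at SP4 only, and the 4 SP8 markers in 4, 3, 3 and 4 (*Nkg7* at DN and SP8). Of genes listed as markers of other cells, 5 of 6 myeloid promoters were open at DN against 2, 2 and 3 later (*Lyz2* and *Spi1* at DN only, *Mpo* at DN and SP8, *Csf1r* at none). B cell promoters were open in 3, 3, 2 and 2 of 6 cases (*Pax5* at DN and DP, with *Cd79a* and *Ms4a1* among those at none), and natural killer and innate lymphoid markers and gamma delta T cell markers in 3 of 6 each at every stage. Windows of the 6 myeloid genes held 94 peaks at DN and 54, 50 and 48 later, and DN is also the longest list. The lineage antibodies of the sort included myeloid, B cell, natural killer and gamma delta ones, and stained cells were left out. Whether the sorted DN cells themselves opened the listed promoters was not tested. The part of other cells in the DN-high *Ccr4* and *Ccr8* elements was not tested either.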

How the data were processed

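ATAC-seq was measured in 16 libraries, 4 mice by 4 stages, and the deposited data used here are 4 peak lists. Per the study's methods, the authors used BWA for alignment to mm10 and Picard against duplicates, kept uniquely mapped proper pairs with mapping quality of at least 30, down-sampled libraries to the median depth, pooled the mice of a stage and ran MACS2 (5% FDR, shift -50, extsize 100); versions are not given in the sources used here. The fold enrichment at each summit, a ratio to local background, and the −log10 q-value were deposited as the authors' caller wrote them, and the score column holds the authors' rescaled q-value. Depth is not in the lists, so no counting interval is given. Pooling hides differences between mice.

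From these lists, peaks were assigned to windows, merged (1 bp overlap) and ranked as percentiles within each list, with Python 3.11.15, pandas 2.3.3, numpy 2.4.6 and pysam 0.24.0, after the code was tested on simulated data. Coordinates are mm10, counted from 1, genes are GENCODE M21, and sequences are RefSeq GRCm38.p6 (5 of 5 promoters matched by symbol). Lists covered chromosomes 1 to 19. The members, gene lists and markers were chosen with earlier results of these data known. Regions named in the text are those over a promoter of a receptor, the highest in a window at a stage, the one with the widest percentile range at all 4 stages, single-stage regions above percentile 50 and regions at 2 or 3 stages above percentile 75. From the other lists, counts and genes open at some stages are named; the members without a promoter peak and example genes were named after their values were seen. The promoter values of some marker genes, and the count for DP markers, are not reported here.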

Additional observations from a re-analysis of the deposited data

How the results depend on the processing

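With 10 kb on either side the 5 windows held 51 peaks in DN, 48 in DP, 56 in SP4 and 50 in SP8 cells, so SP4 was highest in place of DN. With 100 kb they held 167 in DN, 137 in DP, 145 in SP4 and 147 in SP8 cells, and 210 merged regions. With equal numbers of peaks per list DN, at 66, went from the highest to the lowest of the stages, against 72, 74 and 76, and DN-only regions numbered 4 in place of 11. With RefSeq gene bodies the counts were 66, 59, 64 and 67. The summit rule, the 1 bp rule and a q-value of at most 0.001 kept every total within 1.5 times. All 5 receptors kept a promoter peak at every stage with a promoter of 1000 bp. Where the summit had to lie inside the 200 bp promoter 4 of 5 did, all but *Cxcr4*. The difference between the highest and lowest stage of a named region kept its sign in all 25 regions when percentiles were taken by q-value, and 9 moved by over 10 percentile points. Differences between other stages were not all kept, as for SP4 and DN at *Cxcr4* and DN and SP8 at the *Cxcr6* and *Ccr8* promoters. Motif counts were all lower in the 100 bp around the summit, a shorter stretch than the median region of 291 bp. Fewer matches follow from a shorter stretch, so this is no test of the counts. No paired analysis was possible because the mice were pooled into 1 list per stage, and for the same reason no replicate could be left out. Depth behind single peaks is unknown, so a region without a peak was not shown to be closed.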
